A study of Homo sapiens with 16 samples.

Results

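The genes described here are those whose response to the CDK4 and CDK6 inhibitor PD-0332991 differed between 2 pairs of cell lines. All 4 are human lines used as models of T-cell acute lymphoblastic leukaemia (T-ALL). The pair of CEM and DND41 was set against the pair of CUTL1 and Jurkat. The lines were paired by the fall of cell cycle genes in these same arrays, weaker in CEM and DND41 and stronger in CUTL1 and Jurkat. For each gene, the change in a line was the mean log2 intensity with PD-0332991 minus that with DMSO. The difference between the pairs was the mean change in CEM and DND41 minus the mean change in CUTL1 and Jurkat. A gene was a member if this difference had an adjusted p under 0.05 in limma and if the changes of both lines of one pair lay above those of both lines of the other. Of 13483 genes tested, 462 were members, which is 3.43%. In 343 of them (2.54%) the change was higher, that is less negative or more positive, in CEM and DND41, and in 119 (0.883%) it was lower there. The difference alone was called in 528 genes (3.92%), 384 higher (2.85%) and 144 lower (1.07%). The members were thus chosen by the differences between the pairs and by the changes in the 4 lines, which are given below as description and carry no test.

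The study held 16 expression arrays in 8 groups of 2. CEM, DND41, CUTL1 and Jurkat cells were each exposed to 1 uM PD-0332991 or to DMSO for 15 h in RPMI medium with serum, with no other agent and no genetic change named in the labels. PD-0332991, also called palbociclib, blocks the kinases CDK4 and CDK6. Each line is an established culture derived from 1 patient, so each side of the comparison rests on 2 lines. The labels do not say whether replicates were separate cultures, so a p-value here speaks of array-to-array spread, part or all of it perhaps technical. Precision is limited by the number of arrays.

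CDK4 and CDK6, bound to D-type cyclins, phosphorylate the retinoblastoma protein RB1 in G1 and so release E2F transcription factors, which switch on genes for nucleotide supply, origin licensing and DNA replication. Genes of G2 and mitosis are held down in resting cells by the DREAM complex, which contains the RB1 relatives RBL1 and RBL2 and binds elements called CHR in their promoters, and are switched on later by MYBL2 and FOXM1. In T-cell leukaemia, cyclin D3 is a main partner of CDK4 and CDK6. Inhibition of these kinases is known to lower both groups of genes in cells that retain RB1.

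The promoters of 6 members are shown because they hold the motif words of these gene programmes, or neither. Each is 300 bases from RefSeq on GRCh38.p14, 250 before and 50 after the gene's start, on the gene's own strand. Capitals mark an E2F word (TTTCCCGC, TTTGGCGC, TTTCGCGC or TTTGCCGC) or the CHR word TTTGAA, on either strand. DTL at chr1:212035498-212035797 (plus strand), TYMS at chr18:657403-657702 (plus strand) and CDC6 at chr17:40287629-40287928 (plus strand) hold an E2F word. TOP2A at chr17:40417847-40418146 (minus strand) and NCAPG at chr4:17810729-17811028 (plus strand) hold the CHR word. UNG at chr12:109097347-109097646 (plus strand), a member whose difference had the opposite sign, holds neither.
DTL: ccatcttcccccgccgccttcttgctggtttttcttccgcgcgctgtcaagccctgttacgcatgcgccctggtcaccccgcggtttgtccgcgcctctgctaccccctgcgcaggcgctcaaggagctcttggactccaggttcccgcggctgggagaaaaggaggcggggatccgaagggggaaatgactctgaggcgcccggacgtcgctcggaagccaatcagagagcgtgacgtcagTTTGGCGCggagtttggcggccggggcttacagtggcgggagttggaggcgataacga
TYMS: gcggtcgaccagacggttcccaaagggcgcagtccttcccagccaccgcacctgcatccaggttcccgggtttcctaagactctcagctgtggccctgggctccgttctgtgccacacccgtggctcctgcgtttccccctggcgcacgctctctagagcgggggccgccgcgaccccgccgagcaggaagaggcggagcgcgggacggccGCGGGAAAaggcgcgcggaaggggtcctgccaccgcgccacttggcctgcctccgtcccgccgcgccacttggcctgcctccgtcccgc
CDC6: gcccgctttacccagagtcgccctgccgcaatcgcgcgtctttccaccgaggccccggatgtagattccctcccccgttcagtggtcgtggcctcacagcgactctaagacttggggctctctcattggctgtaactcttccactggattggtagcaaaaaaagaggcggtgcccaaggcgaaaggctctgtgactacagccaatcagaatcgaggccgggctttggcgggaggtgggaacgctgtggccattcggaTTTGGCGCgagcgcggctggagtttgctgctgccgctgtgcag
TOP2A: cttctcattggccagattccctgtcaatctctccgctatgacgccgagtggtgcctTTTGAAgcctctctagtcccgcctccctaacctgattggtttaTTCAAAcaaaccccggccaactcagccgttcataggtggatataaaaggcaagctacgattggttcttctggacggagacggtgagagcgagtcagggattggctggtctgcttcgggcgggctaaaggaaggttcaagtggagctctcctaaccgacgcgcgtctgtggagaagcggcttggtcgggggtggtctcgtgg
NCAPG: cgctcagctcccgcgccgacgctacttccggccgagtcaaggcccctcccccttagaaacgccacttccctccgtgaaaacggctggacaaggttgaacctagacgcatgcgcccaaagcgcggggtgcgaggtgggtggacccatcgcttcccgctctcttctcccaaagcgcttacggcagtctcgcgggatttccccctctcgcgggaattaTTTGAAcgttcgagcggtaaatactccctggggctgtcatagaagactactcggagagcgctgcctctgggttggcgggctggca
UNG: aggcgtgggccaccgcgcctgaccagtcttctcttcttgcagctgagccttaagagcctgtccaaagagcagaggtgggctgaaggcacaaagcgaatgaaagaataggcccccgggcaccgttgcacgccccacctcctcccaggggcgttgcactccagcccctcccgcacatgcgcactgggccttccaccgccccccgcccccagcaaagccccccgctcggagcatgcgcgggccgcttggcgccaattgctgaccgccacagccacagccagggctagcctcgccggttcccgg

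Among all 27305 promoters in the RefSeq table, 3.27% held an E2F word and 15.6% the CHR word. Of the genes tested, 10826 had a promoter in the table, and 4.93% of these held an E2F word and 10.2% the CHR word. Of the 273 members with a higher change in CEM and DND41 that had a promoter, 18.7% held an E2F word and 30.0% the CHR word. Of the 98 members with a lower change, 6.12% held an E2F word and 14.3% the CHR word. Among the higher members the words differed by role. An E2F word stood in 18 of 32 promoters of replication members and in 6 of 54 promoters of G2 and mitosis members. The CHR word stood in 0 of the 32 and in 35 of the 54. CCAAT, the word bound by NF-Y, stood in 60.1% of the higher members, in 33.7% of the lower members and in 36.2% of the genes tested. These are matches of letters in 1 window and say nothing of binding. Among further members searched, RRM2, MCM10 and E2F7 held neither the E2F nor the CHR words in the same window. GINS2 held an E2F word. CDCA5, a G2 and mitosis member, held an E2F word and no CHR word, and CDK1 held both. Only the exact words given were searched, and other forms of these sites were not.

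Replicate arrays correlated at r of 0.993 to 0.998 over the genes tested, and the DND41 arrays with PD-0332991 lay farthest apart, at a median absolute log2 difference of 0.142. All 8 T-lineage markers, among them CD3D, CD2, CD7 and LCK, stood above the dim level of 4.88 on the log2 scale in all 4 lines. Of the markers of other cell types, 2 of 4 for B cells, 4 of 5 for myeloid cells, 3 of 5 for NK and cytotoxic cells, 0 of 3 for erythroid cells and megakaryocytes, 3 of 5 for fibroblasts and endothelium and 2 of 5 for epithelium stood below it in all 4 lines. Among these were MS4A1, CD14, LYZ, MPO, GNLY and CDH5, while CD79A, CD79B, NKG7, NCAM1, COL1A1, VWF and KRT18 were among those above it in all 4. The log2 of the summed intensity of the B-cell list was 9.21 in CEM and 10.77 in DND41, and 8.06 in CUTL1 and 8.31 in Jurkat. Their part in the results was not tested. No marker of these other cell types was a member. The signal of the 18S probe sets changed by 0.25 in CEM, -0.64 in DND41, -0.49 in CUTL1 and 0.04 in Jurkat (log2). That order does not follow the pairs. The 5' minus 3' signal of GAPDH changed by -0.009 in CEM, -0.035 in DND41, 0.015 in CUTL1 and 0.038 in Jurkat, which does follow them. For actin it changed by -0.27 in CEM, 0.35 in DND41, -0.14 in CUTL1 and -0.10 in Jurkat. The part of these measures in the results was not tested.

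The higher members were mostly genes that PD-0332991 lowered in all lines, and lowered less in CEM and DND41. Their median change was -0.56 in CEM, -0.62 in DND41, -1.24 in CUTL1 and -1.20 in Jurkat, beside medians over all genes tested of 0.01 in CEM, 0.01 in DND41, 0.05 in CUTL1 and 0.05 in Jurkat. The mean of the 4 changes was below 0 past the limma threshold in 287 of the 343 and above 0 in 30. Among all genes tested it was below 0 in 20% and above 0 in 26.7%. The choice of members did not use this mean, but the lines were paired by the fall of cell cycle genes in these arrays. Changes were negative in all 4 lines in 250 of the 343, beside 2382 of the 13483 genes tested. Of these 343 genes, 126 stood on the lists of RB network, replication, nucleotide synthesis, DNA repair, and G2 and mitosis genes, against 3 of the 119 lower members. These are 36.7% of the higher and 2.52% of the lower members, beside 1.57% of all genes tested. The lines were paired by the fall of such genes. A surplus of them among the higher members thus follows in part from that choice. So do a surplus of genes that fell and smaller falls of such lists in CEM and DND41. A difference in the share of cycling cells and a difference in RNA per cell cannot be told apart in such bulk samples. In the median over all their genes tested, the replication, DNA repair, and G2 and mitosis lists were lowered less in CEM and DND41, as given below. The RB network and nucleotide synthesis lists did not follow that order, with medians of -0.41 in CEM and -0.56 in DND41, and -0.30 in CUTL1 and -0.26 in Jurkat, for the RB network.

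The lower members went both ways on average. Their median change was -0.12 in CEM, -0.28 in DND41, 0.33 in CUTL1 and 0.19 in Jurkat. The mean of the 4 changes was above 0 past the threshold in 39 of the 119, below 0 in 29 and not called in 51. The changes of the pairs had opposite signs in 40 of the 119, in 30 of the 343 higher members and in 640 of the 13483 genes tested. A group mean lay below the dim level in 34 of the 119 and in 39 of the 343, where the size of a change is less certain. Among the 13483 genes tested this was so in 2096.

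**Figure D1:**
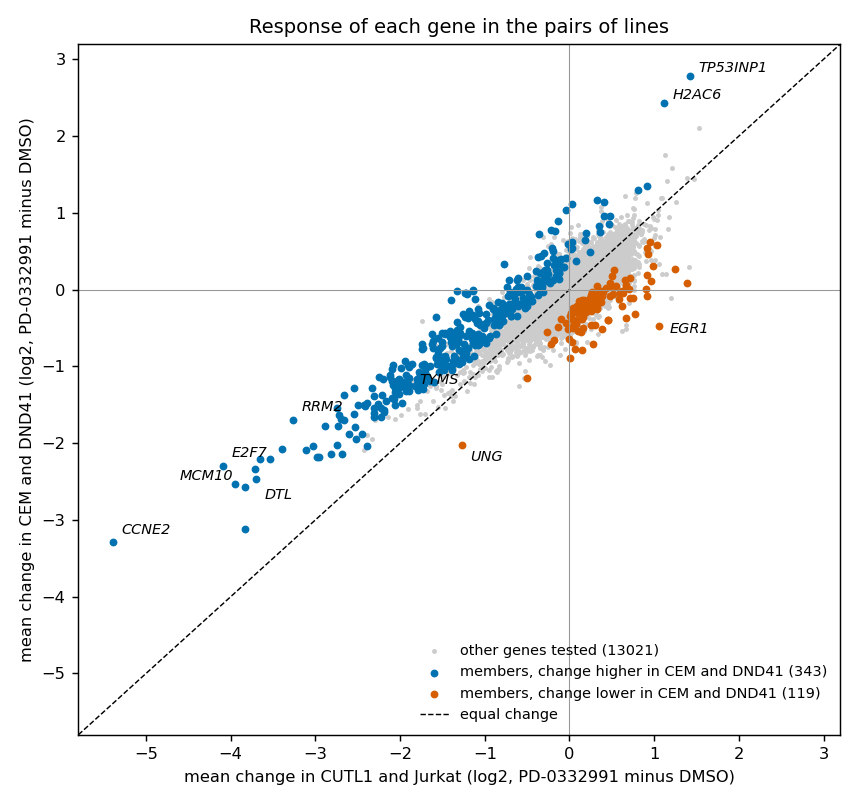
Each point is 1 gene, with its mean change in CEM and DND41 on the vertical axis and its mean change in CUTL1 and Jurkat on the horizontal axis, both as log2 PD-0332991 minus DMSO. The 343 members with a higher change in CEM and DND41 lie above the line of equal change, mostly at the lower left, and the 119 with a lower change lie below it, near 0 on both axes.

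The members rest on the spread between arrays, not between lines. With each line taken as 1 replicate, 0 genes were called in limma for the difference between the pairs, and 436 passed an unadjusted p of 0.05. All 462 members kept their sign in that fit, as the choice of members fixes it. Irrespective of any test, the changes of the pairs did not overlap in 1733 genes (12.9%) with the higher change in CEM and DND41 and in 2090 genes (15.5%) with the lower. The count of lower members was also unsteady. It lay between 56, without DND41 DMSO replicate 1, and 249, without DND41 PD-0332991 replicate 2, as single arrays were left out, while that of higher members lay between 265 and 401. The difference at the threshold depended on the spread of each gene. GAS2 (-0.63) and SLC25A32 (-0.32) lay just inside it, and NME1 (-0.27) and MLN (-0.31) just outside.

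RRM2, TYMS, DTL and MCM10 mark the pattern. RRM2, the small subunit of ribonucleotide reductase, which makes deoxyribonucleotides, stood with PD-0332991 at 11.51 and 11.53 in CEM and 10.60 and 10.39 in DND41, and at 9.96 and 9.93 in CUTL1 and 8.97 and 8.89 in Jurkat, on the log2 intensity scale. With DMSO it stood at 12.99 and 12.97 in CEM, 12.41 and 12.45 in DND41, 12.95 and 12.93 in CUTL1 and 12.52 and 12.40 in Jurkat. The pairs did not overlap with PD-0332991 and were interleaved with DMSO. The log2 change of RRM2 was -1.46 in CEM, -1.94 in DND41, -2.99 in CUTL1 and -3.53 in Jurkat (SE 0.08 each). This left 36.3% of the DMSO intensity in CEM and 26.1% in DND41, and 12.5% in CUTL1 and 8.6% in Jurkat.

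TYMS, which makes thymidylate, stood with PD-0332991 at 12.66 and 12.66 in CEM and 12.46 and 12.44 in DND41, and at 12.03 and 12.01 in CUTL1 and 11.66 and 11.70 in Jurkat. Its DMSO levels were 13.57 and 13.51 in CEM, 13.57 and 13.50 in DND41, 13.81 and 13.81 in CUTL1 and 13.60 and 13.72 in Jurkat. The order of the pairs was turned round by treatment, since with DMSO all 4 arrays of CUTL1 and Jurkat lay above those of CEM and DND41. The change of TYMS was -0.88 in CEM, -1.08 in DND41, -1.80 in CUTL1 and -1.98 in Jurkat (SE 0.06 each).

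DTL, the substrate receptor of a ubiquitin ligase that destroys the licensing factor CDT1, stood with PD-0332991 at 9.18 and 9.07 in CEM and 8.89 and 8.99 in DND41, and at 7.50 and 7.63 in CUTL1 and 8.16 and 8.08 in Jurkat. With DMSO its levels lay close together, at 11.51 and 11.57 in CEM, 11.46 and 11.48 in DND41, 11.43 and 11.43 in CUTL1 and 11.60 and 11.71 in Jurkat. DTL kept 18.7% of its DMSO intensity in CEM and 17.3% in DND41, and 6.8% in CUTL1 and 8.6% in Jurkat. MCM10, which helps to activate the replicative helicase, stood with PD-0332991 at 8.28 and 7.99 in CEM and 7.87 and 8.01 in DND41, and at 6.71 and 6.87 in CUTL1 and 6.38 and 6.50 in Jurkat. With DMSO all 8 arrays held MCM10 between 10.13 and 10.38. For both genes the pairs overlapped with DMSO and lay apart with PD-0332991.

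All 4 genes fell on average over the lines, with mean log2 changes of -2.48 for RRM2, -1.43 for TYMS, -3.09 for DTL and -2.93 for MCM10, with adjusted p of 2.43e-12, 1.31e-11, 2.95e-13 and 2.71e-12 in limma. The lines were paired by the fall of cell cycle genes in these arrays, so these values are given as description. The gap between the pairs with PD-0332991 was 1.57 for RRM2, 0.71 for TYMS, 1.19 for DTL and 1.42 for MCM10, against 0.00 for RRM2, -0.20 for TYMS, -0.04 for DTL and -0.03 for MCM10 with DMSO. The other probe sets of these genes above the dim level, 1 for RRM2, 1 for TYMS, 1 for DTL and 2 for MCM10, ordered the pairs in the same way.

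**Figure D2:**
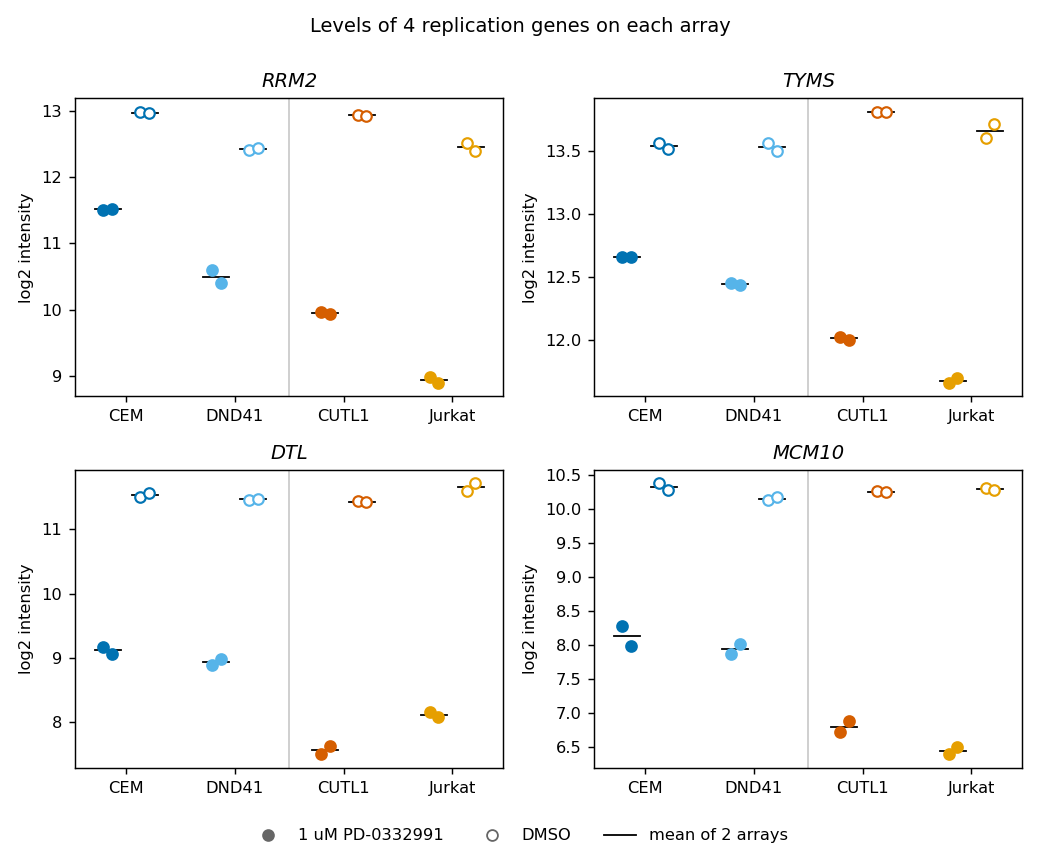
Log2 intensity of RRM2, TYMS, DTL and MCM10 on each array, by line, with 2 arrays of PD-0332991 as filled points, 2 of DMSO as open points and their mean as a bar. With DMSO the 4 lines lie close together, and with PD-0332991 CEM and DND41 lie above CUTL1 and Jurkat for each gene.

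Within the RB network, the members included cyclin and E2F genes, and not CDK4, CDK6 or RB1. Of 29 genes tested 8 were members, all with a higher change in CEM and DND41, and the median difference over the 29 was 0.10, beside -0.02 over all genes tested. CCNE2, cyclin E2, a partner of CDK2 at the start of S phase, had the largest difference of all members, 2.11. It stood with PD-0332991 at 7.96 and 7.56 in CEM and 7.08 and 7.20 in DND41, and at 5.16 and 5.37 in CUTL1 and 5.89 and 5.19 in Jurkat. With DMSO it stood at 10.60 and 10.74 in CEM, 10.75 and 10.85 in DND41, 11.21 and 11.24 in CUTL1 and 10.20 and 10.54 in Jurkat. The pairs lay apart with PD-0332991, and with DMSO CUTL1 was highest and Jurkat lowest. CCNE2 kept 13.3% of its DMSO intensity in CEM and 7.9% in DND41, and 1.6% in CUTL1 and 3.5% in Jurkat. A further CCNE2 probe set gave the same order and a smaller difference, 0.77.

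E2F7 and E2F8, repressors that E2F itself induces, followed with differences of 1.79 and 1.33. The change of E2F7 was -2.04 in CEM, -2.56 in DND41, -4.33 in CUTL1 and -3.85 in Jurkat (SE 0.18 each). That of E2F8 was -1.58 in CEM, -2.84 in DND41, -3.54 in CUTL1 and -3.53 in Jurkat (SE 0.20 each). The lowest group mean of E2F7, 4.68, lay below the dim level. The other members, named after their values were seen, were E2F2 (1.01), an activating E2F, CDC25A (0.75), a phosphatase that activates CDKs, CCNA2 (0.60), cyclin A2, TFDP1 (0.34), the partner of E2F proteins, and SKP2 (0.29), which targets the inhibitor CDKN1B. CDK4, CDK6, CCND3, RB1, RBL1, RBL2 and CDKN1A were not members. The change of CDK4 was -0.65 in CEM, -0.56 in DND41, -0.76 in CUTL1 and -0.62 in Jurkat. E2F1 was not a member either, with changes of -0.81 in CEM, -1.16 in DND41, -1.56 in CUTL1 and -1.06 in Jurkat.

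Replication genes had the lowest median changes of the lists counted, and 36 of 55 tested were members, all with a higher change in CEM and DND41. The median change over the 55 was -1.34 in CEM and -1.28 in DND41, and -1.91 in CUTL1 and -1.80 in Jurkat. The median share of the DMSO intensity that remained was 39.4% in CEM and 41.3% in DND41, and 26.6% in CUTL1 and 28.7% in Jurkat. On average over the lines 52 of the 55 fell, and the changes of the pairs did not overlap in 41, always with the higher in CEM and DND41. After MCM10 (1.45), the largest differences were those of CDT1 (1.32) and CDC6 (1.26), which load the MCM helicase on origins. CDC6 stood with PD-0332991 at 7.19 and 7.27 in CEM and 6.82 and 7.04 in DND41, and at 5.43 and 5.61 in CUTL1 and 5.75 and 5.87 in Jurkat. The DMSO arrays read 9.90 and 9.76 in CEM, 9.48 and 9.45 in DND41, 9.34 and 9.57 in CUTL1 and 9.57 and 9.50 in Jurkat. The PD-0332991 arrays of the pairs were apart for CDC6 and the DMSO arrays overlapped.

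The replication members spanned the whole path to the fork. All 6 subunits of the MCM2 to MCM7 helicase were members, with differences from 0.46 for MCM6 to 1.00 for MCM5, as were all 4 GINS subunits, with differences from 0.56 for GINS3 to 0.78 for GINS1. CDC45 (1.02), their partner in the active helicase, POLE2 (0.96) and POLA2 (0.73), polymerase subunits, FEN1 (0.93), which trims Okazaki fragments, and PCNA (0.49), the sliding clamp, were members too. The 19 that were not members included genes that fell without a split between the pairs. TIPIN, which stabilises stalled forks, changed by -1.42 in CEM and -1.19 in DND41, and by -1.36 in CUTL1 and -1.41 in Jurkat. GMNN, the inhibitor of CDT1, changed by -1.31 in CEM and -1.15 in DND41, and by -0.54 in CUTL1 and -1.72 in Jurkat. The origin recognition genes ORC2, ORC4 and ORC5 changed by between -0.20 and 0.15 in every line, unlike ORC1 (difference 0.78) and ORC6 (0.65), which were members. These genes were named after their values were seen.

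Nucleotide synthesis was divided. Of 26 genes tested 22 fell on average, while 6 were members with a higher change in CEM and DND41 and 2 with a lower one, and the median difference was 0.05. The higher members were RRM2 (1.56), TYMS (0.91), TK1 (0.72), CTPS2 (0.62), RRM1 (0.59) and DTYMK (0.36). Except for CTPS2, these serve the supply of deoxynucleotides, and TK1 is the thymidine salvage kinase. TK1 changed by -1.87 in CEM and -2.17 in DND41, and by -2.59 in CUTL1 and -2.90 in Jurkat (SE 0.09 each). A further TK1 probe set gave a difference of 0.22 and did not keep the order of the pairs. The lower members were GART (-0.28) and DHODH (-0.36), enzymes of purine and of pyrimidine synthesis from simple precursors. PAICS, PPAT and CTPS1, of the same routes, had differences of 0.00, -0.05 and -0.02.

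DNA repair genes, too, had lower medians in CUTL1 and Jurkat. Of 25 tested 13 were members with a higher change in CEM and DND41 and 1 with a lower change, and the median change was -1.17 in CEM and -1.18 in DND41, and -1.73 in CUTL1 and -1.55 in Jurkat. EXO1, an exonuclease of mismatch repair, changed by -2.26 in CEM and -2.40 in DND41, and by -3.65 in CUTL1 and -3.79 in Jurkat (SE 0.14 each). Its mean in Jurkat with PD-0332991 lay below the dim level. BRIP1, a helicase that binds BRCA1, changed by -1.54 in CEM and -1.54 in DND41, and by -2.92 in CUTL1 and -2.57 in Jurkat (SE 0.13 each). A further BRIP1 probe set gave a difference of 0.13 and did not keep the order of the pairs. RAD51AP1 had a difference of 0.99. BRCA1, BARD1, BLM, CHEK1 and FANCI were members as well, with differences between 0.58 and 0.85. FANCB had a difference of 0.00.

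UNG, the uracil-DNA glycosylase, was the exception, and was singled out after its values were seen. With PD-0332991 it stood at 8.86 and 8.61 in CEM and 9.72 and 9.81 in DND41, and at 10.03 and 9.93 in CUTL1 and 10.40 and 10.39 in Jurkat. With DMSO it stood at 11.02 and 10.80 in CEM, 11.68 and 11.62 in DND41, 11.20 and 11.40 in CUTL1 and 11.50 and 11.72 in Jurkat. With PD-0332991 all arrays of CEM and DND41 lay below those of CUTL1 and Jurkat, and with DMSO DND41 overlapped Jurkat. UNG had a mean change of -1.65 (adjusted p of 5.21e-10 in limma), and its change was -2.17 in CEM and -1.89 in DND41, and -1.32 in CUTL1 and -1.22 in Jurkat. Its promoter above holds none of the E2F words searched, but only 18.7% of the 273 higher members with a promoter held one. Any part of these words in the response of UNG was not tested. UNG was represented by its only probe set.

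Genes of G2 and mitosis had the highest share of members of the lists counted, 63 of 77 tested, all with a higher change in CEM and DND41. The median change was -0.51 in CEM and -0.72 in DND41, and -1.24 in CUTL1 and -1.38 in Jurkat, which left a median of 70.1% and 60.7% of the DMSO intensity in CEM and DND41, and 42.3% and 38.4% in CUTL1 and Jurkat. On average over the lines 76 of the 77 fell. CDCA5, sororin, which holds sister chromatids together, had the largest difference, 1.26, with changes of -1.38 in CEM and -1.18 in DND41, and -2.47 in CUTL1 and -2.61 in Jurkat (SE 0.08 each).

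TOP2A, the topoisomerase that untangles replicated DNA, stood with PD-0332991 at 11.84 and 11.72 in CEM and 12.16 and 11.64 in DND41, and at 11.37 and 11.03 in CUTL1 and 9.50 and 9.49 in Jurkat. Its DMSO levels were 12.10 and 12.07 in CEM, 12.27 and 12.35 in DND41, 12.16 and 12.30 in CUTL1 and 11.61 and 11.65 in Jurkat. Jurkat was lowest under both treatments and CUTL1 lay close to CEM and DND41 with DMSO. TOP2A kept 81.0% of its DMSO intensity in CEM and 75.5% in DND41, and 48.9% in CUTL1 and 22.8% in Jurkat. NCAPG, a condensin subunit, kept 49.7% in CEM and 47.7% in DND41, and 25.8% in CUTL1 and 21.3% in Jurkat.

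The regulators of the mitotic programme were themselves members. FOXM1, its activator, had a difference of 0.97, MYBL2, the B-Myb factor, 0.92, and CDK1, the mitotic kinase, 1.04. CDK1 kept 70.7% of its DMSO intensity in CEM and 62.9% in DND41, and 39.5% in CUTL1 and 26.6% in Jurkat. The kinases AURKB (0.94), PLK4 (0.93), TTK (0.80), BUB1 (0.67), AURKA (0.56) and PLK1 (0.46), and the motors KIF2C (0.91), KIF11 (0.91), KIF15 (0.89) and KIF20A (0.83), were members too. PLK1 changed by -0.04 in CEM and -0.30 in DND41, and by -0.48 in CUTL1 and -0.79 in Jurkat. AURKA changed by -0.08 in CEM and -0.35 in DND41, and by -0.64 in CUTL1 and -0.91 in Jurkat. AURKB changed by -0.58 in CEM and -0.76 in DND41, and by -1.51 in CUTL1 and -1.71 in Jurkat. The 14 genes that were not members included BUB3, MAD2L1 and SMC4. These genes were named after their values were seen.

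**Figure D3:**
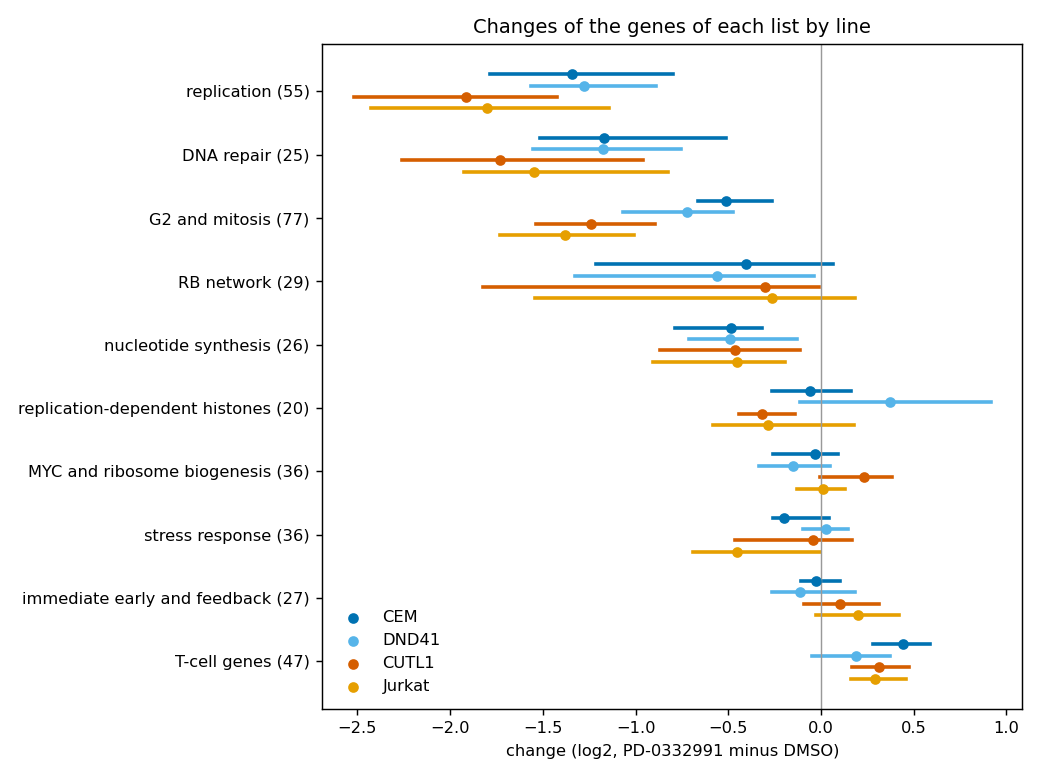
Changes (log2, PD-0332991 minus DMSO) of the genes tested in 10 lists, with the median as a point and the middle 50% of genes as a bar, for CEM, DND41, CUTL1 and Jurkat. The points of CEM and DND41 lie to the right of those of CUTL1 and Jurkat for replication, DNA repair and G2 and mitosis, and the 4 lines overlap for T-cell genes.

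Replication-dependent histone genes, which package newly made DNA, went both ways, as 9 of 20 tested fell on average and 3 rose. Of the 20, 7 were members, all with a higher change in CEM and DND41, with a median change over the 20 of -0.06 in CEM and 0.37 in DND41, and -0.32 in CUTL1 and -0.28 in Jurkat. H2AC6 rose on average by 1.77 (adjusted p of 2.54e-09 in limma), with changes of 2.29 in CEM and 2.58 in DND41, and 1.30 in CUTL1 and 0.93 in Jurkat (SE 0.14 each). H1-2, a linker histone, stood with PD-0332991 at 8.35 and 8.37 in CEM and 10.07 and 10.00 in DND41, and at 9.20 and 9.27 in CUTL1 and 6.38 and 6.26 in Jurkat. With DMSO it stood at 8.42 and 7.99 in CEM, 9.41 and 9.61 in DND41, 9.28 and 9.69 in CUTL1 and 7.71 and 7.52 in Jurkat. The replicates overlapped between treatments in CEM and were apart in Jurkat, where the change of H1-2 was -1.29. H4C8, a core histone gene with 2 group means below the dim level, changed by 0.17 in CEM and 1.28 in DND41, and by -0.11 in CUTL1 and -0.62 in Jurkat. Histone genes are near-identical copies, and their probe sets may share signal.

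Other large differences on the higher side included ASF1B (1.30), a histone chaperone, ZNF367 (1.43), a zinc finger protein, and SOWAHA (1.32), which lay below the dim level in 6 of the 8 groups. ASF1B changed by -1.47 in CEM and -1.27 in DND41, and by -2.66 in CUTL1 and -2.67 in Jurkat (SE 0.08 each). The list of p53 targets held 2 members among 23 tested. TP53INP1, a p53 target that promotes autophagy and cell death, rose on average by 2.10 (adjusted p of 2.02e-08 in limma). With PD-0332991 TP53INP1 stood at 10.35 and 10.02 in CEM and 10.49 and 10.50 in DND41, and at 6.63 and 6.89 in CUTL1 and 9.36 and 9.47 in Jurkat. The DMSO arrays read 6.81 and 6.84 in CEM, 8.37 and 8.23 in DND41, 5.61 and 6.42 in CUTL1 and 7.15 and 7.47 in Jurkat. All 4 lines were higher with PD-0332991, CEM by 3.36, DND41 by 2.20, CUTL1 by 0.75 and Jurkat by 2.10, so DND41 and Jurkat lay close together. A further TP53INP1 probe set gave a smaller difference, 0.44.

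Stress response genes gave 8 members among 36 tested, all with a higher change in CEM and DND41, and a median difference of 0.13. SLC7A11, the cystine transporter, changed by -0.21 in CEM and 0.47 in DND41, and by -0.29 in CUTL1 and -1.13 in Jurkat. ATF3, a stress-induced transcription factor, changed by 0.09 in CEM and -0.01 in DND41, and by -0.92 in CUTL1, where its level was near the dim level, and -0.56 in Jurkat. A further ATF3 probe set gave a difference of 0.09. CHAC1, which degrades glutathione, had a difference of 0.65, and 1 line set it apart, since its change was -1.26 in Jurkat and between -0.21 and 0.04 in CEM, DND41 and CUTL1. SESN2, a stress-induced regulator of growth signalling that stands on the p53 list too, had a difference of 0.60. Among 44 interferon-stimulated genes 3 were higher members and 1 a lower one. CMPK2, a mitochondrial nucleotide kinase, changed by -0.44 in CEM and -0.28 in DND41, and by -1.95 in CUTL1 and -0.52 in Jurkat, so CUTL1 alone stood apart. PLSCR1 (0.44), a phospholipid scramblase, and OASL (-0.53), an antiviral protein, were the other named members of that list.

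Of the 119 lower members 17 (14.3%) stood on a list, beside 149 of the 343 higher members (43.4%) and 4.18% of all genes tested. EGR1, an immediate early transcription factor, had the largest difference, -1.53. It stood with PD-0332991 at 5.23 and 5.72 in CEM and 8.93 and 8.82 in DND41, and at 7.13 and 7.20 in CUTL1 and 7.22 and 7.38 in Jurkat. With DMSO it stood at 5.65 and 5.18 in CEM, 9.89 and 9.87 in DND41, 6.40 and 6.65 in CUTL1 and 5.76 and 5.90 in Jurkat. EGR1 was lower with PD-0332991 in DND41 and higher in CUTL1 and Jurkat, with overlapping arrays in CEM, and CEM and DND41 were the lowest and the highest line with PD-0332991. The changes were 0.06 in CEM and -1.0 in DND41, and 0.64 in CUTL1 and 1.48 in Jurkat (SE 0.17 each). The 2 other EGR1 probe sets gave the same order, with differences of -0.78 and -0.85.

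Of 27 immediate early and feedback genes 5 were lower members and 0 higher, with a median difference of -0.16. Besides EGR1 these were FOSL2 (-0.52), a FOS relative, SPRY2 (-0.45), an inhibitor of growth factor signalling, and, named after their values were seen, DUSP2 (-0.36) and IER2 (-0.32). FOSL2 moved mostly in 1 line, with changes of -0.08 in CEM and -0.88 in DND41, and 0.14 in CUTL1 and -0.05 in Jurkat. The list of MYC and ribosome biogenesis genes held 4 lower members among 36 tested and 0 higher, with a median change of -0.03 in CEM and -0.15 in DND41, and 0.23 in CUTL1 and 0.01 in Jurkat. RRP12 (-0.51), NOP16 (-0.39) and PNO1 (-0.30), which act in ribosome assembly, were the largest. Of the 3 other NOP16 probe sets, 1 kept the order of the pairs and 1 gave the opposite sign. For RRP12, 2 of the 3 other probe sets above the dim level did not keep the order of the pairs, and for TXNIP (-0.46), an inhibitor of thioredoxin, the 2 others gave differences of -0.11 and -0.07.

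TAL1, a transcription factor that drives many T-cell leukaemias, was the only member among 13 T-ALL factors tested. It stood with PD-0332991 at 8.12 and 8.14 in CEM and 7.45 and 7.51 in DND41, and at 3.81 and 4.36 in CUTL1 and 11.70 and 11.75 in Jurkat. Its DMSO levels were 8.85 and 8.93 in CEM, 8.38 and 8.23 in DND41, 4.17 and 4.42 in CUTL1 and 11.23 and 11.22 in Jurkat. TAL1 was highest in Jurkat and below the dim level in CUTL1, where its change of -0.21 lies within the spread of the arrays. The changes were -0.76 in CEM and -0.82 in DND41, and 0.50 in Jurkat, with a difference between the pairs of -0.94. Of the 2 other TAL1 probe sets above the dim level, 1 kept this order and 1 did not. HEY1 (-0.53), a NOTCH1 target, was the only member among 23 NOTCH1 targets, and its change was positive in CUTL1 (0.50) and negative in Jurkat (-0.34). A further HEY1 probe set gave a difference of -0.09.

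The other large differences on the lower side included genes that were dim in most groups. HTR2B, a serotonin receptor, was below the dim level in 6 of 8 groups, ADRB1, the beta-1 adrenergic receptor, in 5, DNAAF4, a factor of ciliary motors, in 6, RMDN2 in 5 and EVI5 in 6. HTR2B stood with PD-0332991 between 3.29 and 3.51 in CEM and DND41, and at 5.06 and 5.27 in CUTL1 and 6.42 and 6.48 in Jurkat, and with DMSO CUTL1 and Jurkat stood between 4.12 and 4.70. It rose on average by 0.74 (adjusted p of 2.03e-07 in limma), with changes of 1.01 in CUTL1 and 1.77 in Jurkat. CX3CR1 (-0.98), the fractalkine receptor, and CRISPLD1 (-0.99) were dim in 4 groups, and USP9Y (-0.86) in 2. TRIM59 (-1.03) and STEAP1B (-0.89) were above the dim level in all 8 groups. TRIM59 changed by 0.14 in CEM and -0.87 in DND41, and by 0.48 in CUTL1 and 0.86 in Jurkat (SE 0.21 each).

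**Figure D4:**
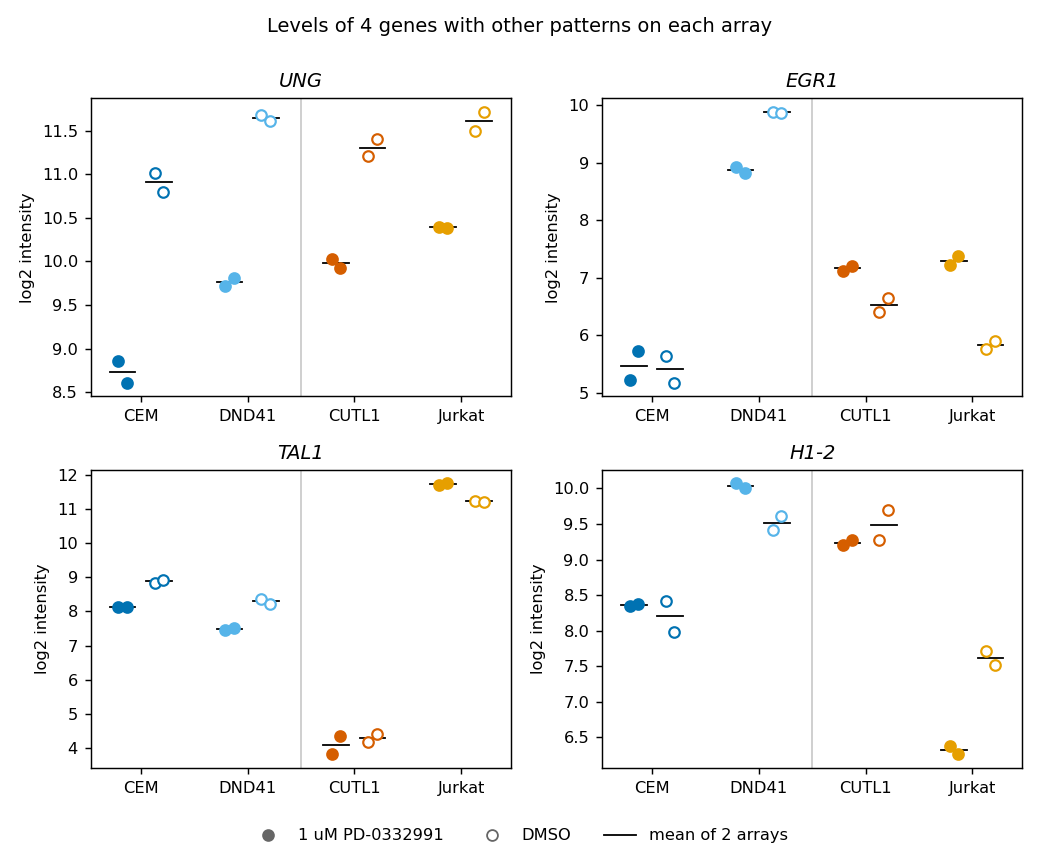
Log2 intensity of UNG, EGR1, TAL1 and H1-2 on each array, by line, with 2 arrays of PD-0332991 as filled points, 2 of DMSO as open points and their mean as a bar. UNG is lower with PD-0332991 in all lines and most in CEM and DND41, EGR1 moves down in DND41 and up in Jurkat, TAL1 spans from below 5 in CUTL1 to above 11 in Jurkat, and H1-2 moves down in Jurkat.

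The remaining lists held few members, beside a share of 3.43% among all genes tested. T-cell genes had 0 members among 47 tested, while 40 of the 47 rose on average. Sterol synthesis had 1, NSDHL (-0.30), among 23, glycolysis 1, the enolase ENO2 (0.32), among 22, and the BCL2 family 1, BCL2L12 (0.38), among 19. FOXO and quiescence genes had 2 higher members, KLF6 (0.45) and YPEL1 (0.45), and TXNIP as a lower one among 34 tested, of which 24 rose on average. YPEL2, a zinc-binding protein of the same list, changed by 1.60 in CEM and 1.28 in DND41, and by 1.43 in CUTL1 and 1.52 in Jurkat, a gene chosen after its values were seen.

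The pairs differed in the level of the members more with PD-0332991 than with DMSO. The median gap, as the level in CEM and DND41 minus that in CUTL1 and Jurkat, was 0.75 with PD-0332991 and 0.11 with DMSO over the 343 higher members, and it was the larger in size with PD-0332991 in 291 of them. Over all replication genes tested it was 0.57 with PD-0332991 and 0.08 with DMSO, and over all G2 and mitosis genes 0.81 with PD-0332991 and 0.11 with DMSO. Over the 119 lower members the median gap was -0.53 with PD-0332991 and -0.12 with DMSO, and 87 had the larger gap with PD-0332991. Among all 13483 genes tested the gap was the larger in size with PD-0332991 in 7945. The choice of the pairs and of the members bears on these gaps, so they carry no test. The level averaged over both treatments, which holds part of the same difference, differed between the pairs past the limma threshold in 58.6% of all genes tested, with 26.4% higher and 32.1% lower in CEM and DND41, and it is not read for the members.

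**Figure D5:**
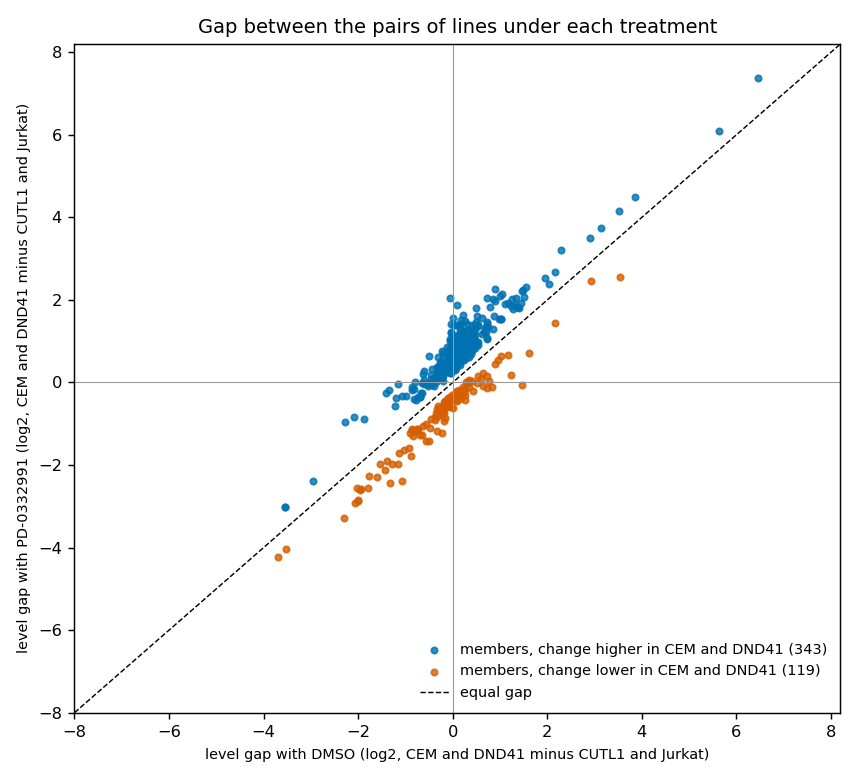
Each point is 1 member, with the gap in level between the pairs (log2, CEM and DND41 minus CUTL1 and Jurkat) with PD-0332991 on the vertical axis and with DMSO on the horizontal axis. Most of the 343 members with a higher change in CEM and DND41 lie above 0 with PD-0332991 (median gap 0.75) and near 0 with DMSO (median gap 0.11).

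A large fall did not by itself make a gene a member. Of 250 genes that fell by 1 or more on average past the threshold, 152 (60.8%) were higher members, 1, UNG, was a lower member, and 97 were not members. These 97 included GMNN, TIPIN, SLBP, which binds histone transcripts, and DNA2, a nuclease and helicase. In the RefSeq promoters, 29.8% of 131 such members and 18.7% of 75 such non-members held an E2F word, and 29% of the members and 16% of the non-members held the CHR word.

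The lines of a pair were not alike. Among the 343 higher members the change differed between CEM and DND41 past the limma threshold in 61, and between CUTL1 and Jurkat in 35. Among all genes tested these differences were called in 9.31% for CEM and DND41 and in 2.55% for CUTL1 and Jurkat. The choice of members used the changes in each line, so the counts among members are given as description. RRM2 was lowered less in CEM than in DND41 by 0.47 and less in CUTL1 than in Jurkat by 0.54. TOP2A was lowered by 1.10 less in CUTL1 than in Jurkat. Among other probe sets above the dim level, 207 members had 341, of which 307 gave a difference of the same sign, 180 kept the order of the pairs, and 34, in 32 genes, gave the opposite sign. Of 30 members named by rule that had such probe sets, the order was kept by all in 14 and lost by at least 1 in 16. The 16 were BRIP1, FOSL2, HEY1, KLF6, NOP16, NSDHL, OASL, PLSCR1, PNO1, RRP12, SLC7A11, TAL1, TK1, TXNIP, USP9Y and YPEL1. Among the members named after their values were seen, a probe set of E2F2, CDC25A, TFDP1, SKP2, CTPS2, DTYMK, GART, DHODH, POLA2, MCM4, MCM6, GINS2, GINS4, CHEK1, AURKB, BUB1 and CDK1 lost it.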

How the data were processed

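Gene expression was measured on 16 arrays. Per the labels' protocols, 5 ng of total RNA was amplified and labelled with biotin. The deposited values are probe set intensities on a linear scale, which the authors made with RMA, per the submitters' processing notes. The version of RMA is not given in the sources used here. Intensities ran from 4.42 to 26097 with array medians of 28.5 to 31.2, and log2 was taken of the deposited values with no pseudocount or further scaling.

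Of 54675 probe sets, 41097 had 1 gene symbol in the platform annotation, 1801 had several and 11777 had none, and the last 2 kinds were not used here. For each of 19775 genes the brightest probe set on average was kept. Genes entered the tests if some line averaged at least 4.88 (log2) over its 4 arrays. This value, the median of all values, is called the dim level. limma 3.58.1 in R 4.3.3 estimated 8 group means (8 residual and 3.32 prior degrees of freedom), with two-sided tests, Benjamini-Hochberg adjustment over the 13483 genes tested and a threshold of 0.05. SEs come from this fit, which shares 1 estimate of the spread over the groups. On simulated data with the same number of genes, 50% of genes with a difference of 0.5 between the pairs were found as members. Of those with a difference of 1, 100% were found. The simulation gave both lines of a pair the same shift and added only the spread between arrays. Its shares therefore do not carry over to genes that change differently in the lines of a pair.

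The pairs of lines, members, gene lists and tests were chosen with earlier results of these data known. The genes named were RRM2, TYMS, DTL and MCM10, the 12 largest differences each way, up to 3 members of each list, and 2 genes on each side of the threshold. Loci with provisional names were passed over, 6 in all. Other genes named were chosen after their values were seen. Promoters came from RefSeq on GRCh38.p14. Alternatives covered scaling, the filter, the choice of probe sets, the replicate block, lines as replicates, and arrays or lines left out.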

Additional observations from a re-analysis of the deposited data

Results flagged for a closer look

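Some members changed differently in the lines of 1 pair, past an adjusted p of 0.05 in limma. The choice of members used the changes in each line, so these differences are given as description. Between CEM and DND41, as CEM minus DND41, the change differed by 0.47 for RRM2, 1.16 for TP53INP1, 1.26 for E2F8, 0.90 for RAD51AP1, -1.10 for H4C8, -0.68 for SLC7A11, 1.07 for EGR1 and 0.80 for FOSL2. RRM2, E2F8 and RAD51AP1 were thus lowered less in CEM than in DND41.

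Between CUTL1 and Jurkat, as CUTL1 minus Jurkat, the change differed by 0.54 for RRM2, 1.10 for TOP2A, 1.04 for H1-2, 0.84 for SLC7A11, 1.05 for CHAC1, 0.61 for RRP12, 0.43 for NOP16 and 0.84 for HEY1. It differed by -1.36 for TP53INP1, -0.76 for HTR2B, -1.05 for DNAAF4 and -1.43 for CMPK2. Of these 20 differences within a pair, 10 were larger in size than the same gene's difference between the pairs, those of H4C8 and FOSL2 between CEM and DND41 and those of TP53INP1, DNAAF4, RRP12, NOP16, HEY1, CMPK2, SLC7A11 and CHAC1 between CUTL1 and Jurkat. HTR2B and DNAAF4 were below the dim level in 6 of 8 groups.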

How the results depend on the processing

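Leaving out a line could not turn the sign of a member's difference, as the choice of members fixes it. The replicate block and lines as replicates leave the differences themselves unchanged. Under the other alternatives, all 462 members kept the sign of their difference where they were tested, except 3 with the mean of all probe sets and 6 without probe sets that match several transcripts (suffixes _x_at and _s_at). Without those probe sets 332 genes were called, with 224 higher and 71 lower members, 22 replication, 3 histone, 4 stress and 2 immediate early members, and 1008 genes lower in CEM and 970 in Jurkat. With lines as replicates 0 genes were called for the difference between the pairs, 0 for the level in either direction, and 841 higher and 1075 lower on average. Median centring gave 899 genes higher in DND41, 1884 called between CEM and DND41, and 2 immediate early members, as did cyclic loess (2) and no filter (2). Lower members numbered 78 with no filter and 179 with a dim level of 2 times the median. The mean of all probe sets left 5 stress members. Without CEM 1185 genes were called, with 730 lower members. Without DND41 342 were called, with 52 lower members and 2 histone, 5 stress and 0 immediate early members. Without CUTL1 306 were called, with 220 higher members and 23 replication, 7 repair and 3 immediate early members. Without Jurkat there were 4 histone, 5 stress and 3 immediate early members. Of the 462 members, 342 remained without CEM, 234 without DND41, 207 without CUTL1 and 320 without Jurkat. A floor at the dim level, chosen after seeing the data as were the list counts without a line and all alternatives for the gaps, gave 793 called and 200 lower members.

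As each array was left out, the genes called ranged over 363 to 842, the highest without DND41 PD-0332991 replicate 2, and lower members over 56 to 249, with 10 of the 16 arrays moving that count by over 1.5 times. Genes higher ranged over 1198 to 2359 in CEM, 701 to 1592 in DND41, 1135 to 2118 in CUTL1 and 1102 to 2283 in Jurkat, and genes lower over 1005 to 1666 in CEM and 1379 to 2430 in DND41. Genes called between CEM and DND41 ranged over 140 to 2162, and between CUTL1 and Jurkat over 134 to 407. The labels do not say whether arrays with the same replicate number were paired. Deviations of arrays with the same number correlated at r of 0.08 in CEM, -0.11 in DND41, 0.19 in CUTL1 and 0.10 in Jurkat. Such values cannot show whether those arrays were handled together. With the replicate block there were 344 members, of which 71 were lower, and 225 genes called between CUTL1 and Jurkat. A group mean below the dim level, as in 34 of the 119 lower members, limits how well a change is measured.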
